A study of Mus musculus with 8 samples.

Results

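Fos, Fosb, Jun, Junb, Egr1, Ier2, Ier3, Atf3, Dusp1 and Zfp36 are immediate early response genes, and they were followed here in 8 single E8.5 mouse embryos. Every non-control probe whose RefSeq transcript mapped to one of these symbols was taken, which gave 1 probe for each of these 10 genes, out of 20660 named genes and 55681 probes on the array. Fos was printed in 10 spots and the other members in 1 spot each. Total RNA of each embryo was hybridised to a one-colour Agilent 8x60K array. All 8 embryos were wild type, came from wild-type mothers and differed in the genotype of the father, 4 having Eed wt/wt and 4 Eed hypo/wt fathers, with 2 females and 2 males in each group. The Eed hypo allele, Eedl7Rn5-1989SB, is a hypomorphic allele of a core subunit of Polycomb Repressive Complex 2, and the comparison asked whether a father that carries it alters gene expression in offspring that do not. The labels give the parents a C57bl6/129 background, while the study's supplement names another strain for the mothers. The sources also differ on how many fathers each group had, and the father is the unit of this comparison. The mouse line also carried a randomly integrated Oct4GFP transgene. In the Eed wt/wt group, 3 of the 4 embryos share the first part of their embryo code, so they may not come from separate litters, and p-values then measure only the spread between these embryos. The father groups lay on separate slides, and the slide therefore cannot be told apart from the genotype of the father.

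Immediate early genes are transcribed within minutes of a growth factor, stress or a mechanical stimulus, without new protein synthesis, by factors such as serum response factor and CREB that are already present in the cell. Their messages are short-lived, and several encode proteins that switch the same response off. Because dissection and delay before freezing can induce them, their spread between samples is often read as a mark of how tissue was handled.

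The 250 bases upstream of the start are given for Fos, the member measured with the most spots, for Dusp1, the member with the smallest p between father groups, and for Zfp36, the member whose window holds a serum response factor site by sequence. RefSeq promoters were on hand for 8 of the 10 members, not for Egr1 and Ier2. Sites farther upstream than 250 bases were not searched in any member. Both strands were searched for the CArG box (the serum response factor motif), TGACGTCA (the full CREB and ATF motif), TGACG (contained in TGACGTCA), TGANTCA (AP-1), TATAAA and GCGGGGGCG (EGR), and the matches are in capitals.
Fos (GRCm38.p6, chr12:85473640-85473889, plus strand): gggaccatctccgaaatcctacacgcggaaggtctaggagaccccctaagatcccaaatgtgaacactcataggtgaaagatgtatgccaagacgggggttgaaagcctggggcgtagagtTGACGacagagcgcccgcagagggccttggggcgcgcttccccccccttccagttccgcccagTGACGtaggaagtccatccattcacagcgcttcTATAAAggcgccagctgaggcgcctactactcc
Dusp1 (GRCm38.p6, chr17:26508473-26508722, minus strand): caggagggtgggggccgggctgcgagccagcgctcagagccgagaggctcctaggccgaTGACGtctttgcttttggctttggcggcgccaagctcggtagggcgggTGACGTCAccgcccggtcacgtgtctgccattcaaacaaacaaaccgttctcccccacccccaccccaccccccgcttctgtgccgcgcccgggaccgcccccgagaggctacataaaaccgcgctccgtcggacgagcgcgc
Zfp36 (GRCm38.p6, chr7:28379229-28379478, minus strand): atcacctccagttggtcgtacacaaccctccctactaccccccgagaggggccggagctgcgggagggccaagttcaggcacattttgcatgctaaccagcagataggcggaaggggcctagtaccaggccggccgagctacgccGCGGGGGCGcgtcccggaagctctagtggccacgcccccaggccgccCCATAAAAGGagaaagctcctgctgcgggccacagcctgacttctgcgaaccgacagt
The Fos window held TGACG at -129 and -66 and TATAAA at -33 from the start. TGACG lies in 17.8% and TATAAA in 12.4% of all 32851 promoter windows of this length, and 5 and 1 of the 8 member windows hold them. The Dusp1 window held TGACGTCA at -143, a motif found in 1.55% of all windows, and TGACG at -191. The Zfp36 window held a CArG box at -58 and GCGGGGGCG at -105, which lie in 1.47% and 2.57% of all windows. GCGGGGGCG was also found in the Fosb window, and TGANTCA, present in 6.75% of all windows, in 0 of the 8. A match is a description of the letters and not evidence of binding.

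Between 29203 and 39530 probes were well above background per array. The median local background was 50 to 51 on the Eed wt/wt arrays. In the Eed hypo/wt group it was 133 on the array of replicate 4 and 30 to 32 on the others. The arrays differed most at low signal. On the array of Eed hypo/wt replicate 3, the median probe lay at a log2 signal of -3.13 relative to the array's 75th percentile, against -4.59 to -3.75 on the other arrays, and the lowest signal well above background was -4.55, against -6.39 to -5.06. Signals below are on the same scale, log2 relative to the 75th percentile of the array, and they are compared between embryos and never between probes. Of the members, 8 were well above background on all 8 arrays. Junb was so on 7 and Zfp36 on 3.

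The members showed no difference between father groups that passed the test. Of the 9 members tested with limma, 0 were called (adjusted p under 0.01 and at least 2-fold), and the smallest adjusted p was 0.9998. 0 of the 33068 probes tested were called, so percent called is 0%, and no member was called by any alternative. Estimates were above 0 for 6 members and below 0 for 3, with a median log2 fold change of 0.05, beside -0.00021 for all tested probes. No tested member had father groups that did not overlap, where 3.16% of all tested probes did. At an unadjusted p under 0.05 the count was 1 of 9, beside 4.35% of all tested probes.

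**Figure D1:**
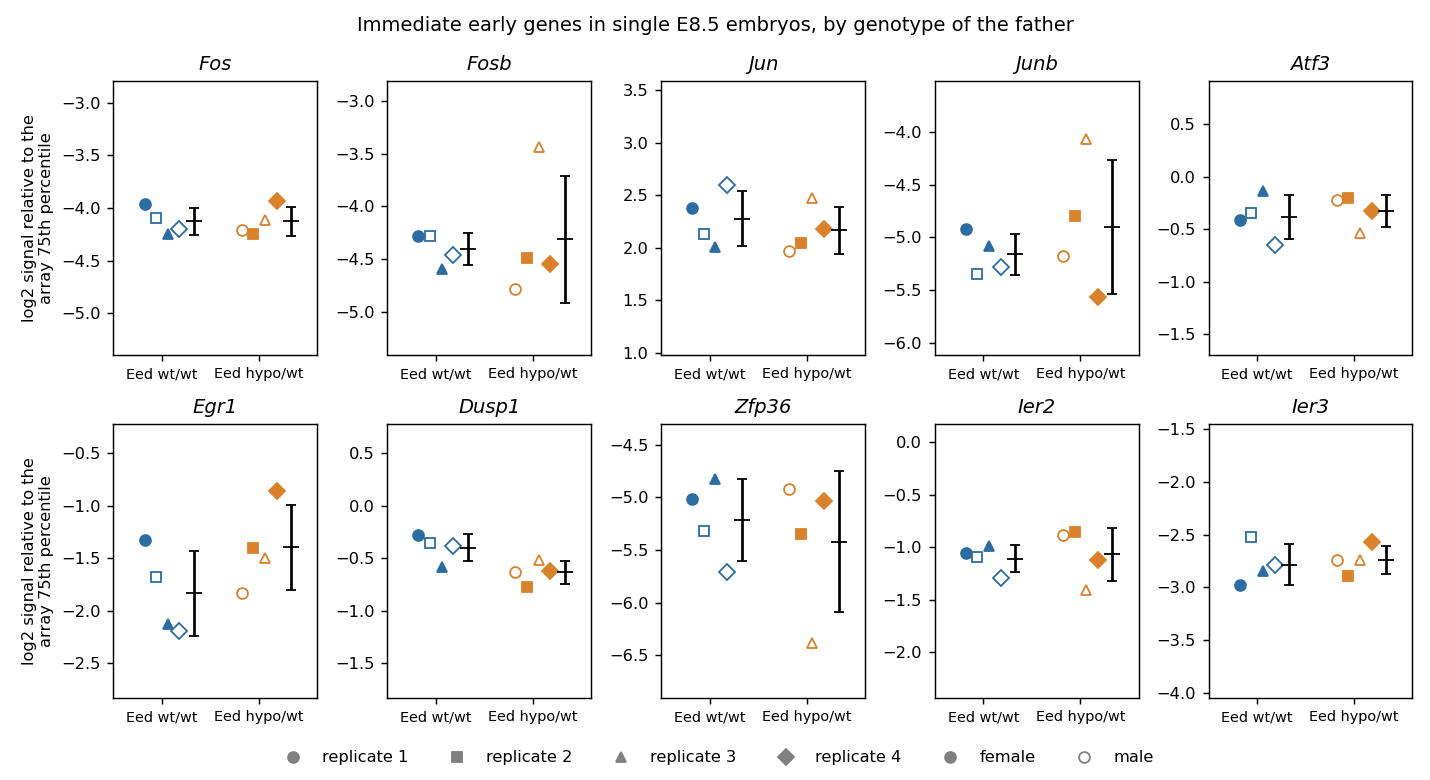
Log2 signal relative to the array's 75th percentile (vertical axis, all panels spanning the same range) in each embryo, by genotype of the father. Symbols give the replicate, filled symbols females and open symbols males, and bars the mean and SD of 4 embryos. With this scaling Fos stayed within 1.25-fold over the 8 embryos and replicate 3 of the Eed hypo/wt group was the highest embryo for Fosb and Junb, and both statements turn under other scalings (quantile normalization gave Fos a range of 4.67-fold, with that embryo lowest for Fos and Junb).

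Among the AP-1 subunits, Fos is the partner that Jun proteins bind to form the AP-1 transcription factor, and it is the classic marker of recent stimulation. Fos signals were -3.96, -4.09, -4.25 and -4.20 in replicates 1 to 4 of the Eed wt/wt group. They were -4.21, -4.25, -4.12 and -3.93 in those of the Eed hypo/wt group. The lowest and the highest embryo, replicates 2 and 4, both belonged to the Eed hypo/wt group, and the father groups overlapped over nearly their whole range. The log2 fold change was -0.0026 ± 0.10 (SE, n = 4 per group, limma adjusted p = 0.9998 or above), with a 95% interval from -0.24 to 0.23. The range over the 8 embryos was 1.25-fold on this scale, and it depended on the scaling. It was 4.67-fold with quantile normalization, 2.705-fold with arrays shifted by their median and 1.65-fold with normexp background correction and quantile normalization. Under each of these, Eed hypo/wt replicate 3 was the lowest embryo, at a log2 signal of 4.19 with quantile normalization against 5.63 to 6.42 in the other 7.

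Because Fos had 10 spots on every array, the error of a single spot could be set beside the spread between embryos. The SD between Fos spots of 1 array was 0.178, pooled over arrays, and the SD between embryos within father groups was 0.135. Spot error alone gives an expected SD of 0.0564 for a mean of 10 spots, which does not include the error of labelling, hybridisation and the array. Over the 305 tested probes with 10 spots, the median SD was 0.0526 between spots and 0.147 between embryos. The embryo SD of Fos was at percentile 44.3 of these probes, which were not matched to it by signal. Of the 80 Fos spots, 3 had been marked as outliers by the extraction software and were left out, at -3.74, -2.62 and -2.22. On the array of Eed hypo/wt replicate 3, 7 of the 9 spots used were well above background, while all spots used on the other arrays were. With the marked spots kept, the Fos log2 fold change became 0.08.

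**Figure D2:**
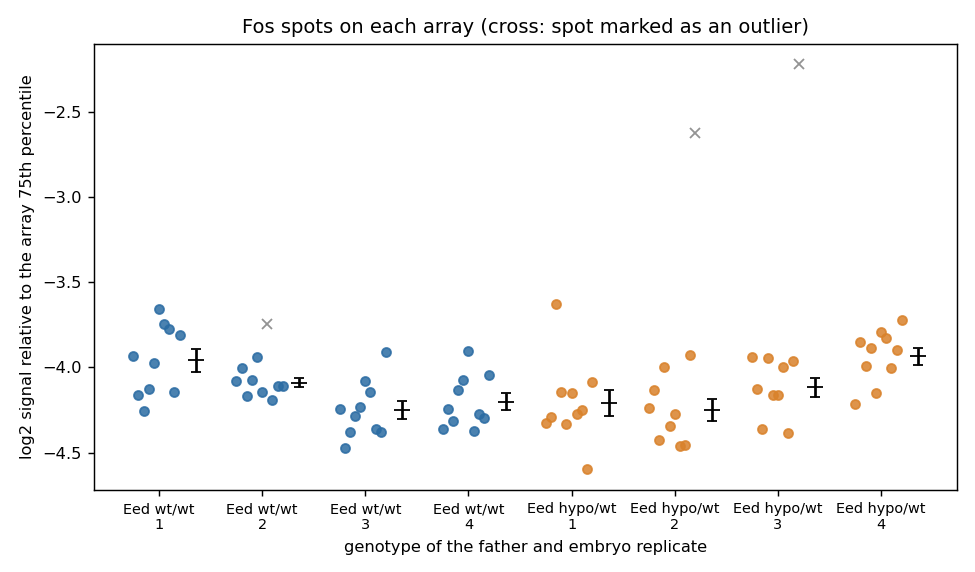
Fos signal in each of the 10 spots of an array (vertical axis, log2 relative to the array's 75th percentile) for the 8 embryos, with the mean and standard error of the spots used in black. The array means lie between -4.25 and -3.93, and crosses show the 3 marked spots, of which the 2 on the Eed hypo/wt arrays lie far above the rest.

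Fosb encodes a close relative of Fos. Its signals were -4.28, -4.28, -4.60 and -4.46 in the Eed wt/wt group. They were -4.78, -4.49, -3.43 and -4.55 in the Eed hypo/wt group. With the 75th percentile shift a single embryo, Eed hypo/wt replicate 3, stood above the other 7, which ranged over 1.42-fold, and the range over all 8 was 2.55-fold. The log2 fold change was 0.09 ± 0.28 (SE), and without that embryo it was -0.20.

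Junb, a Jun family member that can also hold back Jun activity, had the same embryo on top with this scaling. Its signals were -4.92, -5.35, -5.08 and -5.28 in the Eed wt/wt group. They were -5.18, -4.79, -4.06 and -5.56 in the Eed hypo/wt group, where the last, of replicate 4, was not well above background. The log2 fold change of 0.26 ± 0.30 (SE) became -0.02 without replicate 3, and the range over embryos fell from 2.83-fold to 1.71-fold. On that array the Fosb and Junb signals were 1.11 and 0.48 above the lowest signal well above background. The top position did not hold under the other scalings. With normexp background correction and quantile normalization, whose offset of 50 draws dim probes together, that embryo was the lowest for Fosb and the second lowest for Junb, and the ranges over all 8 embryos were 1.26-fold for Fosb and 1.25-fold for Junb. With quantile normalization alone it was the second lowest for Fosb and the lowest for Junb, and with arrays shifted by their median it lay within the range of the others for both.

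The Fosb and Junb signals rose with the median signal of the array, without passing the adjustment. Both probes are dim, with mean log2 signals of -4.36 and -5.03, near or below the array medians of -4.59 to -3.13. Whether other probes of like signal follow the median was not tested. For Fosb, r was 0.916 (exact permutation p = 0.006, adjusted over 20 such relations 0.119; rho = 0.81, exact permutation p = 0.0218; r = 0.473 without the 2 arrays farthest from the median). For Junb, r was 0.858 (exact permutation p = 0.0179, adjusted 0.119; rho = 0.69, exact permutation p = 0.0694; r = 0.287 without the 2 arrays farthest from the median).

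Jun, the main DNA-binding partner of Fos, was measured far above background on every array. Its signals were 2.37, 2.13, 2.01 and 2.60 in the Eed wt/wt group. They were 1.97, 2.04, 2.47 and 2.18 in the Eed hypo/wt group. The 3 highest embryos were replicate 4 of the Eed wt/wt group, replicate 3 of the Eed hypo/wt group and replicate 1 of the Eed wt/wt group, and the father groups overlapped, with a log2 fold change of -0.11 ± 0.16 (SE). These 3 embryos also had the arrays with the highest median signals, at -4.23, -3.13 and -3.75.

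Atf3, a stress-induced factor of the ATF/CREB family, ran the other way across the embryos. Its signals were -0.41, -0.35, -0.14 and -0.65 in the Eed wt/wt group. They were -0.23, -0.21, -0.54 and -0.33 in the Eed hypo/wt group. The 3 lowest embryos for Atf3 were the 3 highest for Jun, and the fold change between father groups was 0.06 ± 0.13 (log2, SE).

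Egr1, a zinc finger factor induced by serum and by neuronal activity, had the widest range among the members well above background on all arrays apart from Fosb. Its signals were -1.33, -1.68, -2.13 and -2.19 in the Eed wt/wt group. They were -1.83, -1.40, -1.50 and -0.86 in the Eed hypo/wt group. The highest embryo was Eed hypo/wt replicate 4 and the lowest 2 were of the Eed wt/wt group, a range of 2.52-fold, yet the groups overlapped. Egr1 had the largest estimate of the members, 1.35-fold (log2 fold change 0.43 ± 0.26, SE, n = 4 per group), with a 95% interval from -0.18 to 1.04 and an unadjusted limma p of 0.138. Over the fits with an embryo left out, the unadjusted limma p ran from 0.0493, without Eed wt/wt replicate 1, to 0.325. Under the other alternatives it was 0.0839 to 0.401. The Eed wt/wt embryos left without replicate 1 share the first part of their embryo code and may not come from separate litters.

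Of the feedback genes, Dusp1 encodes a phosphatase that inactivates MAP kinases. Its signals were -0.28, -0.36, -0.58 and -0.38 in the Eed wt/wt group. They were -0.63, -0.77, -0.52 and -0.62 in the Eed hypo/wt group. Values were lower with Eed hypo/wt fathers, but the group ranges overlapped through replicate 3 of each, which were -0.58 and -0.52. The log2 fold change was -0.24 ± 0.09 (SE, n = 4 per group), a difference of -15.0%, with a 95% interval from -0.45 to -0.02, an unadjusted limma p of 0.0347 and an adjusted p of 0.9998 or above. Dusp1 was the only member with an unadjusted p under 0.05, a threshold that 2.35% of all tested probes passed in this direction. The unadjusted p was above 0.05 when any one of 6 embryos was left out, reaching 0.0912 without Eed hypo/wt replicate 2, and stayed below it without Eed wt/wt replicate 3 (0.0129) or Eed hypo/wt replicate 3 (0.0241). It was 0.00456 with normexp and quantile normalization, where the groups did not overlap, and 0.331 with arrays shifted by their median.

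Markers of decidua and trophoblast, tissues that surround the embryo, had summed linear signals that did not overlap between the father groups, but 0 of the 4 markers tested passed the test. The sums of every other gene list overlapped between the father groups. Among all single tested probes, the father groups did not overlap for 3.16%, a share not taken over such sums. The sum was 5.01 to 8.41 times the 75th percentile in the Eed wt/wt group and 0.664 to 3.20 times in the Eed hypo/wt group. Prl8a2, a decidual prolactin, was the brightest of these markers in the Eed wt/wt group (mean log2 signal 2.20) and weighs most in the sums of that group. It had a log2 fold change of -2.46 ± 0.75 (SE). Its unadjusted limma p was 0.0126 and its adjusted p 1. The estimates of the other tested markers were -0.91 ± 0.75 for Prl3d1, 0.02 ± 0.10 for Prl3b1 and 0.58 ± 1.1 for Cts7 (log2, SE). Of the 5 markers on the array, 3, Prl8a2, Prl3d1 and Prl3b1, were well above background on all arrays, Cts7 on 6 and Tpbpa on none. Their part in the Dusp1 values was not tested, and in whole embryos fewer cells of a type and less RNA per cell cannot be told apart.

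Zfp36, which encodes a protein that binds AU-rich elements and speeds the decay of early messages, was not tested. Its signals were -5.01, -5.32, -4.82 and -5.71 in the Eed wt/wt group, where the first 3 were well above background. They were -4.92, -5.35, -6.39 and -5.04 in the Eed hypo/wt group, none of them well above background. The lowest signal well above background was -6.39 to -5.64 on the Eed wt/wt arrays and -5.39 to -4.55 on the Eed hypo/wt arrays. The counts well above background are therefore not a comparison of Zfp36 between the father groups. The groups overlapped, and no bound on a fold could be given because the mean over the Eed hypo/wt arrays of the higher of the limit and the measured signal, -4.96, lay above the mean of the other group, -5.22.

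Ier2 and Ier3 encode small early response proteins, Ier3 being known for its role in cell survival. Ier2 signals were -1.06, -1.10, -0.99 and -1.29 in the Eed wt/wt group and -0.89, -0.86, -1.40 and -1.12 in the Eed hypo/wt group. Ier3 signals were -2.98, -2.52, -2.84 and -2.79 in the Eed wt/wt group and -2.74, -2.90, -2.74 and -2.57 in the Eed hypo/wt group. The father groups overlapped for both, with log2 fold changes of 0.04 ± 0.14 and 0.05 ± 0.12 (SE). For Ier2, replicate 3 of the Eed hypo/wt group and replicate 4 of the Eed wt/wt group were the lowest embryos, as for Atf3.

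**Figure D3:**
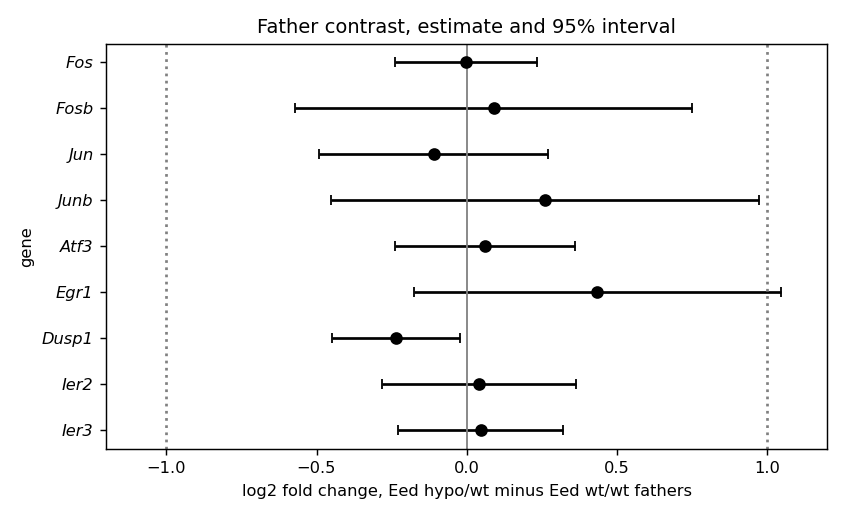
Log2 fold change, Eed hypo/wt minus Eed wt/wt father groups (horizontal axis), for the 9 tested members, with 95% intervals from limma and dotted lines at a 2-fold difference. The interval of Dusp1, from -0.45 to -0.02, is the only one that leaves out 0, and that of Egr1 reaches beyond 2-fold at 1.04.

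The spread between embryos was next set against that of all probes. The median SD within father groups was 0.201 for the tested members and 0.214 for all 33068 tested probes, and 5 of the 9 members lay below that median. The whole range over 8 embryos was under 2-fold for 6 of the 9, as it was for 68.69% of all tested probes. Since dim probes vary more, all tested probes were split by mean signal into 10 bins of equal size, and each member was placed in its own bin. Egr1 (SD 0.404) and Jun (0.243) lay above the upper quartiles of their bins, at 0.307 and 0.192. Fos (0.135), Junb (0.473), Ier3 (0.166) and Dusp1 (0.117) lay below the lower quartiles of theirs, at 0.352, 0.535, 0.190 and 0.125, where the Fos value is a mean over 10 spots and those of most probes are of 1. Of the other probes with 10 spots in the Fos bin, P2rx3 (0.218) and Pck2 (0.228) came nearest to Fos in SD, both above it. Fosb (0.438), Ier2 (0.201) and Atf3 (0.185) lay between the quartiles.

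These placements depended on the scaling, and Egr1 alone lay above its bin under every setting run. With quantile normalization the median SD was higher for the members than for all probes, 0.318 against 0.226, as it was with normexp (0.210 against 0.165) and with the filter on all 8 arrays (0.193 against 0.178). With arrays shifted by their median it was 0.475 against 0.493. The SD of Fos was then 0.751 with quantile normalization, 0.475 with the median shift and 0.247 with normexp, and under each of these Fos lay between the quartiles of its bin. Ier3 had 0.391 with quantile normalization, between the quartiles, and 0.564 with the median shift, above them. With the median shift Jun lay below the lower quartile, and Ier2 and Atf3 above the upper. The spread of Fosb and Junb rested on Eed hypo/wt replicate 3, without which their SDs were 0.154 and 0.287, both below the lower quartiles of their bins.

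**Figure D4:**
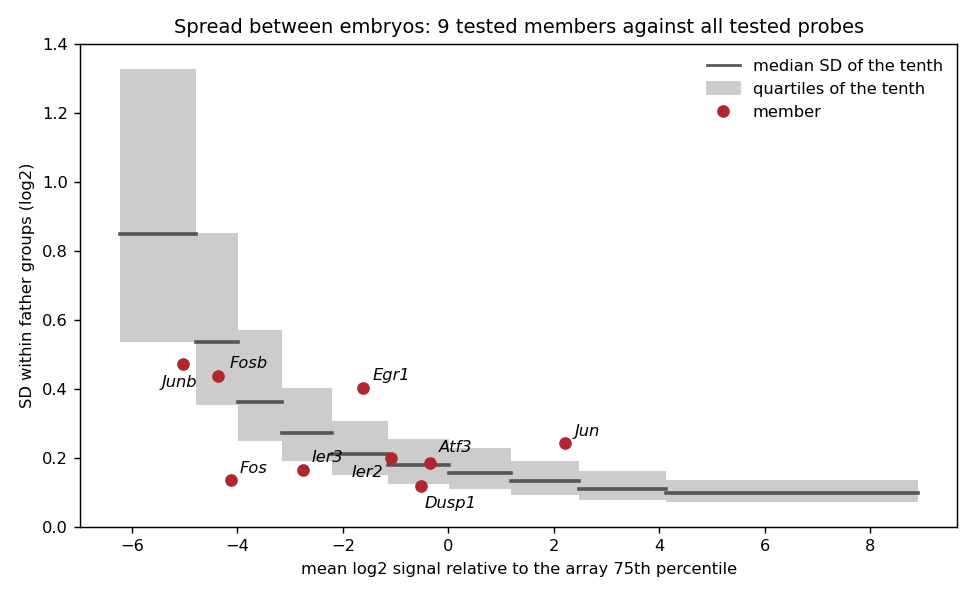
SD within father groups (vertical axis, log2) against mean log2 signal (horizontal axis) for the 9 tested members, over the median and quartiles of all tested probes in 10 bins by mean signal. With the 75th percentile shift, Egr1 and Jun sit above the grey band and Fos, Junb, Ier3 and Dusp1 below it; with quantile normalization Fos and Ier3 lie within the band, and with the median shift Jun lies below it.

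No embryo was high for all members with the 75th percentile shift. Replicate 1 of the Eed wt/wt group was among the 3 highest embryos for 7 of the 10 members, and replicate 4 of that group for 2. The mean deviation of the 9 tested members from their means over all embryos ran from -0.11 in Eed wt/wt replicate 4 to 0.20 in Eed hypo/wt replicate 3, the embryo that was highest for Fosb and Junb and lowest for Ier2 and Zfp36.

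The members were not all high in the same embryos. Over the 45 pairs of members the median Pearson r was -0.0583, and 22 pairs had r above 0. Large r was also common outside the members. The median absolute r of a tested member with all tested probes ran from 0.207 for Egr1 to 0.514 for Jun, and was 0.473 for Atf3. At an unadjusted exact permutation p under 0.05 there were 9 pairs, and 1 passed after Benjamini-Hochberg adjustment over the 45, Jun with Atf3. Their r was -0.965 (exact permutation p = 0.000198, adjusted p = 0.00893). Spearman's rho was -0.905 (exact permutation p = 0.00456, adjusted p = 0.205). The r of deviations from the father group means was -0.966, and r without the 2 embryos farthest from the Jun median was -0.875. No pair passed without Eed wt/wt replicate 1, without Eed wt/wt replicate 4 or without Eed hypo/wt replicate 3, although r for Jun with Atf3 was then -0.974, -0.939 and -0.957. The direction turned with the scaling of the arrays, r being 0.716 when arrays were shifted by their median, a setting under which 16 of the 45 pairs passed. Jun itself had an r of 0.666 with the median signal of the array (exact permutation p = 0.0564, adjusted over 20 such relations 0.177; rho = 0.714, exact permutation p = 0.0576; r = 0.746 without the 2 arrays farthest from the median), and the part of this array difference in the relation was not tested.

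**Figure D5:**
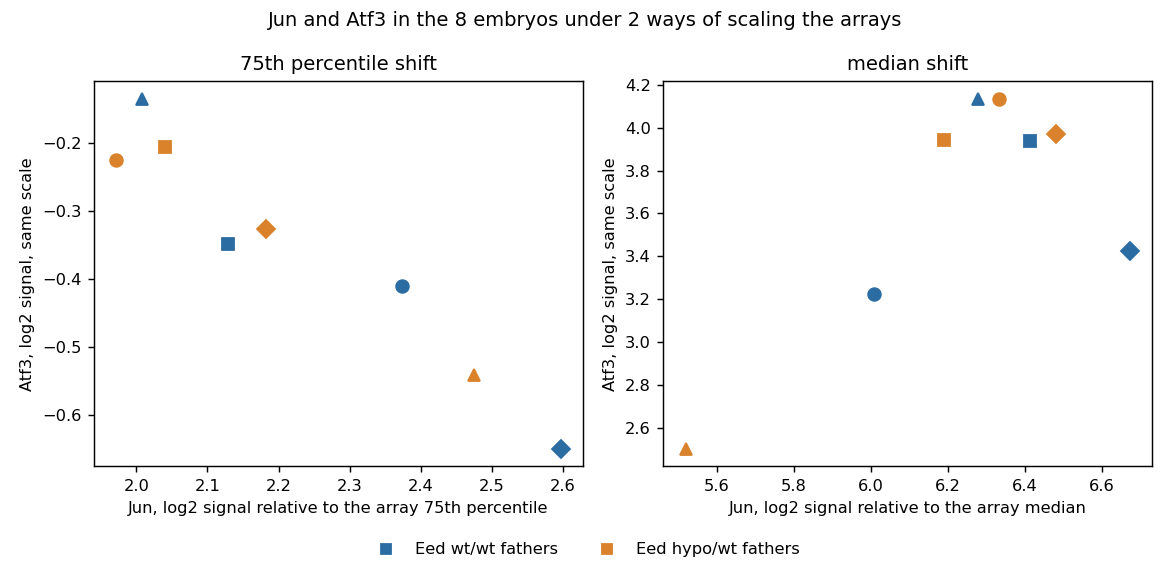
Atf3 signal (vertical axis, log2) against Jun signal (horizontal axis, log2) in the 8 embryos, with arrays shifted by their 75th percentile at left and by their median at right. The relation falls at left (r = -0.965) and rises at right (r = 0.716), where Eed hypo/wt replicate 3 lies apart from the other embryos.

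Ier2 with Atf3 (r = 0.862, exact permutation p = 0.00702, adjusted p = 0.105; rho = 0.81, exact permutation p = 0.0218, adjusted p = 0.327) and Jun with Ier2 (r = -0.857, exact permutation p = 0.00645, adjusted p = 0.105; rho = -0.833, exact permutation p = 0.0154, adjusted p = 0.327) did not pass the adjustment. Without the 2 embryos farthest from the median of the first gene, r was 0.867 and -0.641. The direction of Jun with Ier2 turned with arrays shifted by their median, where r was 0.752. Fos with Egr1 had r = 0.749 (exact permutation p = 0.0336, adjusted p = 0.201; rho = 0.548, exact permutation p = 0.171, adjusted p = 0.453), and r fell to 0.306 without the 2 embryos farthest from the Fos median.

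No member passed the test between male and female embryos. Of the 9 tested members, 0 had an unadjusted limma p under 0.05 between sexes, beside 3.27% of all tested probes, 0 were called at the adjusted threshold, beside 0.0333%, and 0 had sexes that did not overlap, beside 2.58%. The largest estimate was again that of Egr1, with means over 4 embryos of -1.43 (SD 0.52) for females and -1.80 (SD 0.29) for males, a log2 difference of -0.37 ± 0.24 (SE). The unadjusted limma p was 0.169. With an embryo left out it ran from 0.0367, without Eed wt/wt replicate 3, to 0.385, and under the other alternatives it was 0.125 to 0.843.

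No other gene of the response passed the test between father groups. Of the early transcription factors outside the members, 0 of 16 tested passed in either direction, with a median log2 fold change of -0.04. Among the 16 tested, the smallest and largest SD were those of Klf10 (0.06) and Id2 (0.08), and of Fosl2 (0.57) and Klf2 (0.54). Egr3 (1.34) and Egr4 (0.73) had larger SDs but were not tested, being well above background on 2 and 3 arrays. Of the secreted, cytoskeletal and signalling early genes, 0 of 16 passed, with a median of 0.00015. Mcl1, a survival factor, and Hbegf, a growth factor, varied least at 0.08 and 0.10, and Npas4 and Sgk1 most at 0.51 and 0.36.

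Of the feedback inhibitors, 0 of 18 passed, with a median log2 fold change of -0.03. Zfp36l1, a relative of Zfp36, and Spry1 varied least with SDs of 0.05 and 0.08, and the inhibitors of receptor signalling Spry2 and Spred2 most with 0.69 and 0.51. Of the kinases and factors upstream, 0 of 20 passed, with a median of 0.04. The kinase Mapk14 and the factor Atf1 had SDs of 0.04 each, and Mapk8 and Map2k1 0.51 and 0.43.

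Genes of other stress responses were examined alongside. Of the hypoxia-induced genes 0 of 10 passed, and of the heat shock genes 0 of 8. The glucose transporter Slc2a1 (SD 0.07) and Ankrd37 (0.08) varied least and Ddit4 (0.60) and Adm (0.34) most of the first list. Hsp90aa1 (0.08) and Hspa8 (0.10) varied least and Hspa1a (1.00) and Hsph1 (0.23) most of the second. Hspa1a was dim, with mean log2 signals of -4.69 in the Eed wt/wt and -4.51 in the Eed hypo/wt group, and was well above background on 6 arrays. The SDs of genes in the lists were not set against probes of like signal. At an unadjusted limma p under 0.05, the count was 0 in each of these 6 lists.

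Markers of embryo, yolk sac and blood were all present. All 8 markers of the embryo proper, all 6 of yolk sac endoderm and all 6 of primitive erythroid cells were well above background on all 8 arrays. The summed linear signal of the erythroid markers ran from 474 to 1077 times the 75th percentile, both extremes in the Eed wt/wt group. Of the leukocyte markers, 2 of 5 were well above background on all arrays and Lyz2 on none. Pax3, a marker of the embryo proper, was the other gene of the lists with an unadjusted limma p under 0.05, which was 0.0299, beside an adjusted p of 1. Its log2 fold change was -0.22 ± 0.08 (SE). Of all tested probes, 4.35% had an unadjusted limma p under 0.05. Each gene of the lists was read at its brightest probe, a tested one where there was any. Pax3 has another tested probe, whose fold change is not given here.

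The genes most like the members across embryos depended on whether Zfp36 was counted. With the mean deviation of all 10 members, the highest Pearson r among 20183 other probes were those of Marchf10 (0.962), Dnajb14 (0.954), Polh (0.939), 4932412D23Rik (0.929) and Ctsa (0.928). With the 9 tested members they were Larp4 (0.976), Pramel20 (0.972), H2-T24 (0.972), Mief1 (0.964) and 9130230L23Rik (0.952). These are the tops of a search over many probes in 8 arrays and are given as a description.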

How the data were processed

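Gene expression was measured in 8 E8.5 embryos, 1 one-colour array each, labelled from 0.2 ug of total RNA. The authors read the scans with Agilent Feature Extraction software, version 11.0.1.1, and deposited an intensity for each spot, with background removed and no scaling of one array to another. A deposited series table, equal to these intensities within 0.497%, served as an alternative. From each log2 intensity the 75th percentile of its array was subtracted, a percentile which the study's methods do not specify. Controls and spots marked as outliers were dropped before the spots of a probe were averaged. Probes well above background on fewer than 4 arrays, or in the lowest 20% by mean, were not tested. A RefSeq table (assembly GRCm38.p6) gave a symbol to 27235 of the 28685 probes that carry an accession, and its coordinates are printed for promoters only. Groups were compared with limma 3.58.1 (R 4.3.3, data.table, version 1.17.8), and correlations by exact permutation (Python 3.11.15, numpy 2.4.6, pandas 2.3.3, matplotlib 3.10.9), and both were tested on simulated data. Limma p-values were Benjamini-Hochberg adjusted over all 33068 tested probes.

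The members, gene lists and rules were chosen with earlier results of these data known. Named were all members, and genes of the lists at an unadjusted p under 0.05 between father groups. Also named were the 2 tested genes with the largest and smallest SD of each pathway list, and the 5 probes most like the members. Alternatives were other background corrections, scalings and filters, the deposited table, sex, replicate number or embryo code in the fit, array weights, and each embryo left out. Keeping the marked spots was added after seeing the data. The number of arrays limits the precision.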

Additional observations from a re-analysis of the deposited data

Results flagged for a closer look

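Signals of each member, their mean deviation and the summed level of each gene list were examined within each group of 4 embryos, 44 groups in all, for a highest or lowest embryo whose gap to the nearest other took more than 0.829 of the range of the group. Chance alone gives about 1 in 20 such groups, or 2.2 here, and there were 4. No single member was among them. The summed level of the early transcription factors outside the members was lowest in Eed hypo/wt replicate 2 (gap of 0.858 of the range), where the 4 sums lay between 85.7 and 87.8 times the 75th percentile. That of the secreted, cytoskeletal and signalling early genes was highest in Eed hypo/wt replicate 3 (0.855), at 67.6 against 56.6 to 58.2. That of the leukocyte markers was highest in Eed wt/wt replicate 1 (0.896), at 1.70 against 0.961 to 1.04. That of the markers of the embryo proper was highest in Eed wt/wt replicate 4 (0.869), at 29.6 against 24.0 to 24.7.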

How the results depend on the processing

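The tests rest on 4 embryos per father group and on 1 spot per array for all members but Fos, and the signals of Junb and Zfp36 lie near background. No member passed the adjusted threshold under any alternative run. Beside the 0 probes called in all, 1437 had an unadjusted p under 0.05 (477 to 5328 under the alternatives, 969 to 3095 with an embryo left out). Leaving out an embryo gave 0 to 1 called. These were Prim2 (2.52) without Eed wt/wt replicate 1 and Med8 (-6.42) without Eed hypo/wt replicate 4, log2 values named after they were seen. The Eed wt/wt embryos left without replicate 1 share the first part of their embryo code.

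The count of members at an unadjusted p under 0.05, 1 in the main setting, was 0 with the median shift, without the filter on dim probes and when the code of the embryo was a random block, and 0 to 1 with an embryo left out. The count of members whose groups did not overlap was 1 with normexp and quantile normalization and 0 to 1 with an embryo left out, in each case Dusp1. Of the 9 members, 2 had an SD below the median of all probes with quantile normalization and 3 with the filter on all 8 arrays. The number of pairs passing the adjustment was 7 with normexp, 16 with the median shift and 15 with quantile normalization, and 0 to 3 with an embryo left out. Between sexes, 0 to 1 members had an unadjusted p under 0.05 with an embryo left out. The cause of these changes was not tested.

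Fold changes near 0 changed sign. The median shift moved the median of all probes by -0.10 between father groups and gave -0.013 for Fosb, -0.062 for Ier2, -0.056 for Ier3 and -0.042 for Atf3, all above that shift. Normexp gave -0.067 for Ier2 and -0.032 for Ier3, quantile normalization -0.097 for Ier3, array weights -0.13 for Fosb and -0.082 for Ier3, and the marked spots kept 0.080 for Fos. With an embryo left out, fold changes ran from -0.067 to 0.053 for Fos, -0.20 to 0.25 for Fosb, -0.0195 to 0.48 for Junb, -0.028 to 0.15 for Ier2, -0.01979 to 0.13 for Ier3 and -0.028 to 0.14 for Atf3. Between sexes, male minus female, normexp gave -0.0080 for Fosb and -0.030 for Junb, the median shift, which moved the median of all probes from 0.018 to -0.13, gave -0.0048 for Jun, -0.025 for Junb, -0.023 for Ier3 and -0.056 for Dusp1, all above that median, quantile normalization -0.17 for Junb and -0.0029 for Ier3, and array weights 0.050 for Fos and -0.20 for Junb. With an embryo left out these ran from -0.12 to 0.0098 for Fos, -0.065 to 0.48 for Fosb and -0.19 to 0.26 for Junb.

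Both father groups carry replicate numbers 1 to 4. With the replicate number as a replicate block, 0 members had an unadjusted p under 0.05, Dusp1 having 0.109, and 873 probes did. The correlations of deviations between embryos of the same number were -0.547, -0.0452, -0.587 and -0.149. None was above 0, but 4 such values cannot settle whether the numbers pair the embryos.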
